A study of Mus musculus with 39 samples.

Results

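Lungs of mice lacking Cd177 were compared between acute pancreatitis and a sham operation, 5 libraries against 5, which are 10 of the 39 libraries of the study. Of the 55357 genes in the lung table, 15978 had an FPKM (sequenced fragments scaled to transcript length and to the depth of the library) of at least 1 in at least 4 of the 20 lung libraries, and these were tested. The study sequenced mRNA-enriched RNA from lung and colon of C57BL/6N mice, either wild type (WT) or Cd177 knockout (KO), with acute pancreatitis (AP) or after sham. The groups used here were KO lung with AP and KO lung after sham, which share the deletion, and beside them 5 WT lung libraries with AP and 5 after sham. The agent that induced pancreatitis, the time of sampling, the age and sex of the mice and the design of the deleted allele are not stated in the sources used here. The labels do not say whether each library came from a separate animal, so p-values measure the spread between these libraries, which may be technical. Libraries are named by group and replicate, so that KO AP 3 is the AP library of the KO mice with replicate number 3.

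Cd177 encodes a surface glycoprotein of neutrophils that binds PECAM1 on endothelium and associates with beta2 integrins. Acute pancreatitis is an inflammation of the pancreas in which mediators and activated leukocytes reach the lung, where neutrophil entry, leak of the alveolar barrier and loss of surfactant function are the known features of the injury. The lung is built of conducting airways, lined by secretory club cells and ciliated cells, and of alveoli, lined by flat type 1 and surfactant-making type 2 cells over a capillary bed and a thin collagen and elastin matrix.

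Cd177 was listed at 0 FPKM in all 10 KO lung libraries, against a mean of 3.19 ± 0.926 FPKM (SD, n = 5) in WT lung with AP and 2.01 ± 0.926 FPKM (SD, n = 5) after sham. Read totals recovered from the deposited values were 84.2 to 95.4 M reads (M, mega) in KO AP, 77.0 to 93.8 M reads in KO sham and 57.9 to 71.2 M reads in the WT lung libraries. Surfactant and other type 2 cell genes summed to between 13186 and 79307 FPKM in the KO libraries, which identified each of them as lung. The KO libraries varied more within their groups than the WT ones, with a median standard deviation of a gene on the log2(FPKM + 1) scale of 0.26 in KO AP and 0.32 in KO sham, against 0.17 in WT AP and 0.14 in WT sham. Of the KO libraries 3 correlated least with the others of their group across genes. They were KO AP 3 at 0.929, KO sham 5 at 0.936 and KO sham 4 at 0.938, while the other 7 lay between 0.943 and 0.962. KO AP 3 held adipocyte genes at a sum of 4384 FPKM against 54.1 to 201 FPKM in the other KO libraries, and skeletal muscle genes at 4429 FPKM against 6.06 to 21.6 FPKM. KO sham 4 and KO sham 5 held the highest sums of mature neutrophil genes, 3396 and 1713 FPKM, and KO sham 5 had the lowest share of FPKM from mitochondrial genes, 2.49%. KO sham 5 also had the highest FPKM total of the KO libraries, 800442 against 548422 to 635367, and the fewest genes above 0, 21471. Of the 10 KO libraries it was the highest for 22.7% of genes tested, the largest share. Values are therefore also given without these 3 libraries, KO AP 3, KO sham 4 and KO sham 5, where the text says so.

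No gene passed an adjusted p of 0.05 between AP and sham in KO lung (limma with Benjamini-Hochberg adjustment over 15978 genes, 0% called), and the lowest adjusted p was 0.681. At an unadjusted p under 0.05 there were 960 genes, 6.01% of those tested, of which 592 (3.71%) had higher and 368 (2.3%) lower values in AP. The fit over all 20 lung libraries, which assumes the same spread in KO and WT, called 2 genes, 0.0125% of those tested, and had 2234 genes, 14%, at an unadjusted p under 0.05. Those genes were Gm9747 and Itprid1, both higher in AP. The 5 AP libraries lay wholly above the 5 sham libraries for 85 genes (0.532%) and wholly below them for 60 genes (0.376%), 0.907% of genes in all. The median log2 change over all genes was -0.02, the median standard error 0.19 and the median width of the 95% interval 0.42 to either side. A difference of 1 on this scale, a doubling of a well expressed gene, was reached by 86 genes in the higher and 45 in the lower direction, and without KO AP 3 by 68 and 112. The values below are levels and differences that did not pass the adjusted test, described with their intervals. Each interval is for a single gene and is not adjusted for choosing genes by a low p. An interval that leaves out 0, or groups that stand apart, can follow from that choice.

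**Figure D1:**
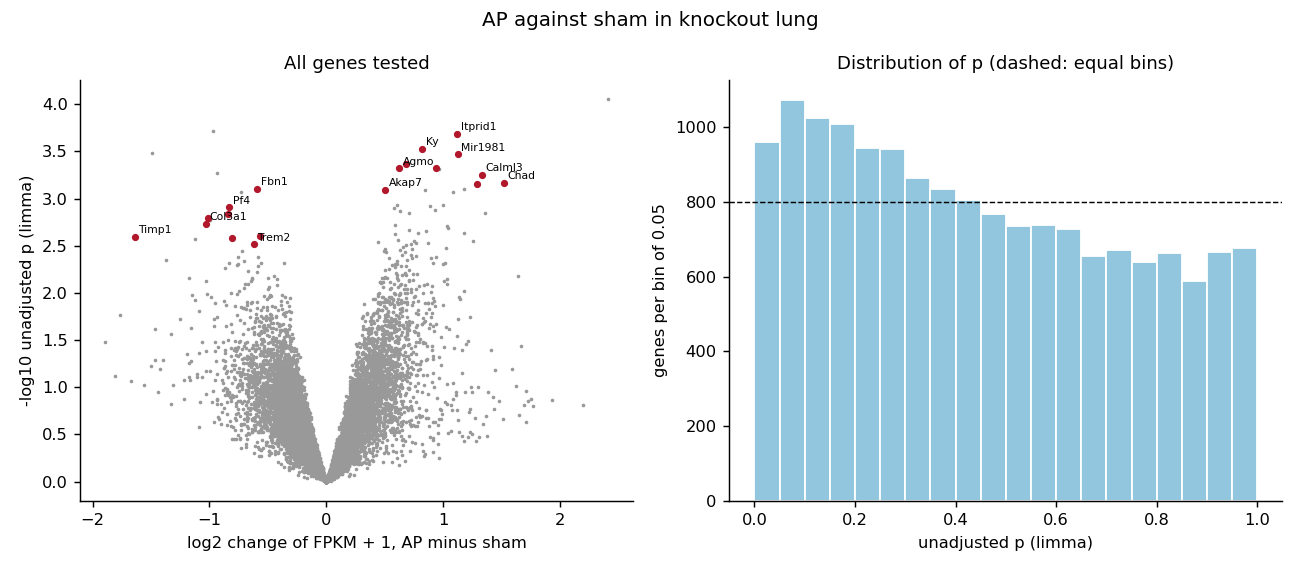
Left: each dot is 1 of 15978 genes, with the log2 change of FPKM + 1 (AP minus sham in KO lung) against -log10 of the unadjusted limma p; red dots are the 19 genes with the lowest p that the text describes, of which 12 carry their symbol. Right: number of genes in bins of p of width 0.05, where the first bin holds the 960 genes with p under 0.05 and the dashed line is the height of equal bins.

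Among genes whose mean reached 2 FPKM in AP or sham, the 10 with the lowest p in the higher direction were Itprid1, Ky, Mir1981, Hsd17b14, Crip3, Agmo, Calml3, Chad, Lypd2 and Akap7. Of these Itprid1, Ky, Mir1981, Hsd17b14 and Calml3 met that floor only through AP. Their sham means were 1.38, 1.03, 0.72, 1.49 and 1.26 FPKM. A floor met through the higher group favours genes with a difference, so groups that stand apart are no support for these genes. Itprid1 was at 3.01, 6.48, 2.54, 4.56 and 4.97 FPKM in KO AP 1 to 5 and at 1.52, 1.18, 1.93, 1.16 and 1.09 FPKM in KO sham 1 to 5. Every AP library lay above every sham library, with a log2 change of 1.12 ± 0.21 (SE) and a 95% interval of 0.66 to 1.58 (limma adjusted p = 0.681). In the 20-library fit its adjusted p was 0.0121, and in WT its change was 0.32. Gm9747, a predicted gene outside the ranking and named because the 20-library fit called it, was at 4.48, 6.89, 7.18, 8.09 and 5.32 FPKM in AP. In sham it was listed at 0 in 4 libraries and at 3.70 FPKM in KO sham 2, and it was listed at 0 in all 10 WT libraries. It met the filter only through the AP libraries in which it was high, so a difference was built into its being tested. The 10 WT libraries at 0 also lower the spread that the 20-library fit assumes, and its limma adjusted p of 0.00254 there, against 0.681 in the KO fit, supports nothing.

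Agmo encodes alkylglycerol monooxygenase, which cleaves ether lipids, and was at 8.18 to 10.51 FPKM in AP against 4.83 to 7.08 FPKM in sham. Akap7, an anchor of protein kinase A, was at 16.6 to 20.9 FPKM in AP against 11.7 to 14.1 FPKM in sham. Neither gene overlapped between its groups, and the log2 changes were 0.63 ± 0.13 and 0.50 ± 0.11 (SE). Hsd17b14, a hydroxysteroid dehydrogenase, was at 2.51 to 3.33 FPKM against 1.03 to 1.89 FPKM, also without overlap. Ky, a gene of muscle cytoskeleton, was at 1.78 to 3.59 FPKM in AP and 0.687 to 1.52 FPKM in sham. In KO AP 3, which held the other skeletal muscle genes, Ky was at 2.69 FPKM, below the 3.59 FPKM of KO AP 2. Calml3, a calmodulin-like gene of epithelia, was at 2.35, 5.45, 9.85, 3.91 and 3.80 FPKM in AP and at 0.70 to 1.93 FPKM in sham. KO AP 3 was its highest library, and its log2 change was 1.33 with all libraries and 0.93 without the 3 libraries. Crip3, which encodes a LIM domain protein, overlapped between the groups by 1 AP library, KO AP 1 at 3.29 FPKM, below the 3.39 FPKM of KO sham 2.

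Mir1981 is a microRNA gene that lies within Marc2 on the same strand in the GRCm38 annotation. Its mature products, from the RefSeq table for GRCm38.p6, are shown because the deposited value carries only the name of the hairpin gene, and mRNA-enriched libraries do not measure the mature strands. Capitals mark the seed, bases 2 to 8, and the strands lie on the minus strand of chromosome 1, from 184822409 to 184822429 for 3p and from 184822465 to 184822488 for 5p.
mmu-miR-1981-5p: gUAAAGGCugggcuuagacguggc
mmu-miR-1981-3p: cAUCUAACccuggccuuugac
The value listed for Mir1981 was 2.61, 3.69, 2.17, 1.88 and 3.02 FPKM in AP and 1.07, 1.20, 0.780, 0.552 and 0 FPKM in sham, so the groups did not overlap. Marc2, the mitochondrial amidoxime reducing component around it, was at 58.5 to 70.3 FPKM in AP and at 55.04 to 60.96 FPKM in 4 sham libraries, with KO sham 5 at 119.95 FPKM. Fragments of Marc2 transcripts and of the hairpin cannot be told apart in these values.

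The genes described with the lowest p in the lower direction were Fbn1, Pf4, Rtn4rl2, Arg2, Col3a1, Itgb6, Timp1, Tubb2a and Trem2. Fbn1, which encodes the microfibril protein fibrillin-1, was at 1.67 to 2.099 FPKM in AP and 2.53 to 4.21 FPKM in sham, without overlap. Its mean met the floor of 2 FPKM only through sham, at 3.41 FPKM against 1.91 FPKM in AP. In WT lung Fbn1 was at 7.22 to 14.9 FPKM in AP and 10.8 to 17.9 FPKM in sham. Its log2 change was -0.59 ± 0.13 (SE), with a limma adjusted p of 0.681. Itgb6, the subunit of an epithelial integrin that activates TGF-beta, was at 3.36 to 5.28 FPKM in AP against 5.73 to 8.18 FPKM in sham. Arg2, the mitochondrial arginase, was at 2.66 to 7.36 FPKM against 8.60 to 14.1 FPKM. Tubb2a, a beta-tubulin, was at 17.7 to 37.0 FPKM against 39.5 to 58.2 FPKM. None of the 3 overlapped between its groups. Rtn4rl2, a receptor of the Nogo receptor family, overlapped by KO AP 5 at 4.36 FPKM, above KO sham 5 at 4.25 FPKM.

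**Figure D2:**
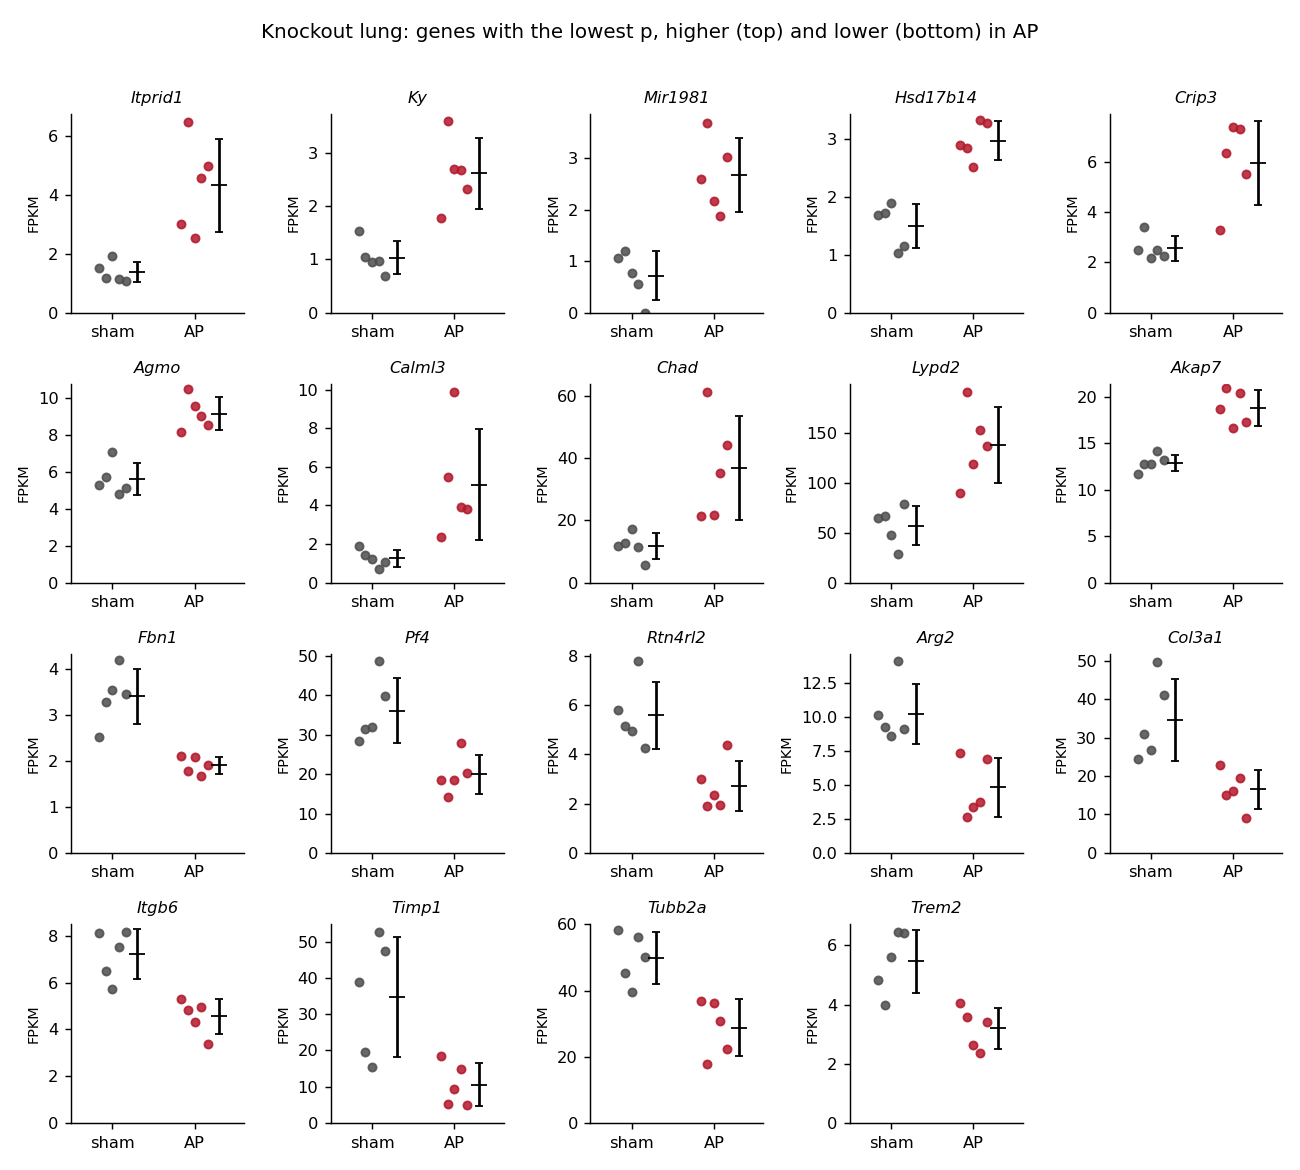
FPKM of the 19 genes described in each KO lung library (y axis, FPKM from 0; dots, the 5 sham and 5 AP libraries; black marks, mean and SD). The upper 2 rows hold the genes with higher values in AP, such as Itprid1 with a mean of 4.31 against 1.38 FPKM, and the lower 2 rows those with lower values, such as Timp1 with a mean of 10.6 against 34.7 FPKM.

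Club and ciliated cell genes had positive medians, and no member passed the adjusted test. The 6 basal and neuroendocrine genes tested, also of the airway lining, had a median of 0.21, which was -0.04 without the 3 libraries. All 20 genes of the club cell list had a log2 change above 0, against 46.9% of all genes, with a median of 0.77, and 8 of them had an unadjusted p under 0.05 in that direction, against 3.71% of all genes. Scgb3a2, a secretoglobin that club cells secrete, was at 2363, 5425, 1835, 3553 and 2946 FPKM in AP and at 1475, 1167, 1402, 754 and 2264 FPKM in sham. The groups overlapped only through KO sham 5, which lay above KO AP 3, and the log2 change was 1.18 ± 0.38 (SE; 95% interval 0.35 to 2.01). Cyp2f2, the cytochrome P450 typical of mouse club cells, was at 1292, 2961, 802, 1342 and 2283 FPKM in AP. In sham it was at 651, 905, 1124 and 1058 FPKM in replicates 1 to 4 and at 209 FPKM in KO sham 5, and its change was 1.20 ± 0.50 (SE). Lypd2, a member of the Ly6 family, was at 90.1, 191, 118, 153 and 137 FPKM in AP and at 64.5, 66.4, 47.7, 28.4 and 78.4 FPKM in sham. Its groups did not overlap, and its change was 1.29 ± 0.28 (SE).

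The list did not move as a block in single libraries. Scgb3a1, another secretoglobin, was at 854 and 500 FPKM in KO AP 3 and KO AP 4 but at 76.5 and 142 FPKM in KO AP 1 and KO AP 2, within the sham range of 34.9 to 257 FPKM. Muc5b, a gel-forming airway mucin, was at 12.4 FPKM in KO AP 3 against 0.733 to 5.39 FPKM in the other 9 libraries. Without the 3 libraries its change was 0.48 and not 0.99. Aldh1a1, a retinaldehyde dehydrogenase, was at 608 to 892 FPKM in AP and 359 to 613 FPKM in sham, with 1 AP library inside the sham range. The summed level of the list was highest in KO AP 2, at 153947 FPKM, and lowest in KO AP 3, at 33345 FPKM, so the AP group held both ends of the range. The median change of the list was 0.61 without the 3 libraries and 0.27 in WT.

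Most ciliated cell genes had the same sign. Of 30 listed genes 29 passed the filter and 27 of them had a change above 0, against 46.9% of all genes. An unadjusted p under 0.05 was held by 9, all above 0, against 3.71% of all genes in that direction. The list median was 0.46, or 0.26 without the 3 libraries, and 0.20 in WT. The summed level of the list overlapped, at 1870 to 2611 FPKM in AP, inside the 1256 to 3071 FPKM of sham. KO sham 1 held the highest sum, and the group medians of the sum were 2224 FPKM in AP and 1938 FPKM in sham. Ccno, a cyclin-like gene needed to build many cilia on a cell, was at 3.89, 5.43, 2.38, 5.79 and 4.44 FPKM in AP and at 2.06, 2.37, 2.62, 2.53 and 1.33 FPKM in sham. Only KO AP 3 lay inside the sham range, and the change was 0.74 ± 0.21 (SE; 95% interval 0.28 to 1.19). Dnah5, a heavy chain of the ciliary outer dynein arm, was at 5.25, 7.68, 4.46, 9.09 and 5.19 FPKM in AP against 5.87, 3.86, 3.25, 2.03 and 1.78 FPKM in sham. Spag16, a protein of the central pair of the axoneme, was at 9.28 to 13.8 FPKM in AP against 11.6, 7.62, 7.03, 4.03 and 2.52 FPKM in sham. For both genes KO sham 1 lay inside the AP range and KO sham 4 and KO sham 5 were the lowest libraries. Cfap43, another axoneme gene, also had KO sham 1 highest and KO sham 4 and KO sham 5 lowest in its group, at 18.6, 11.7, 14.3, 7.51 and 7.41 FPKM, against 14.5 to 25.3 FPKM in AP.

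The promoters of ciliated cell genes are known for X-box sites, which RFX transcription factors bind, and the letters of its half-site, GTTGCC, were searched on either strand from 250 bases before to 50 bases after the start site in the RefSeq table for GRCm38.p6. Of the 29 ciliated genes tested 24 had an entry, and 11 of these, 45.8%, held the letters, against 12.7% of the first listed promoters of 27025 genes. The promoters of 3 ciliated genes described above are shown, Ccno and Spag16 with a match and Dnah5 without, with the match in capitals. They lie at chr13:112987552-112987851, chr1:69826720-69827019 and chr15:28203516-28203815, all on the plus strand.
Ccno: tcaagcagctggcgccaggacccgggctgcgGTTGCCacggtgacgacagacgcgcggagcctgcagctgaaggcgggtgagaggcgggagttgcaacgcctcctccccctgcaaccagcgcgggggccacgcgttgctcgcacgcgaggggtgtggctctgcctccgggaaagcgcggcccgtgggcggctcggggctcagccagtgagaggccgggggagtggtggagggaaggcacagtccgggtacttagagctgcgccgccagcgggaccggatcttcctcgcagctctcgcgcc
Spag16: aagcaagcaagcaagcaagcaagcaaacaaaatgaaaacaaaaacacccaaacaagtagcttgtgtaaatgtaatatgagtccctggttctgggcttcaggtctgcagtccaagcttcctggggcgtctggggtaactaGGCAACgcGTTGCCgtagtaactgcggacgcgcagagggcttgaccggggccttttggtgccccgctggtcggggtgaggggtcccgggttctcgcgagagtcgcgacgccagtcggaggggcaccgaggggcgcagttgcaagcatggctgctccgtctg
Dnah5: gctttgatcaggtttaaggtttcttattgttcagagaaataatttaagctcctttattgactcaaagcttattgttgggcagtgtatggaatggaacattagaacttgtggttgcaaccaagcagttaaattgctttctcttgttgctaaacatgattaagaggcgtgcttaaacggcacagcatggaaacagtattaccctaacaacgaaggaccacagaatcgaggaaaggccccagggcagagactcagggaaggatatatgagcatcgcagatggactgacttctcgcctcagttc
The match begins 219 bases before the start site in Ccno. Spag16 has both orientations 2 bases apart, at 111 and 103 bases before the start site. Dnah5, with no match in this window, had a change of 0.79 ± 0.26 (SE), beside 0.85 ± 0.30 for Spag16 and 0.74 ± 0.21 for Ccno. Among the other ciliated genes with the lowest p that had an entry, Cdhr3 held the letters, and Cfap43, Ccdc39 and Ak7 did not. Binding was not measured in the study's lung data used here.

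Cartilage genes, which mark the rings of large airways, were mostly below the filter, and 3 of 16 were tested, with a median of 0.53 that was 0.11 without KO sham 1. Cytl1, a cytokine-like gene of cartilage, had a change of 0.53 and Col9a3, a chain of type IX collagen, of -0.06. Chad, which encodes the cartilage matrix protein chondroadherin, was at 21.5, 61.1, 21.8, 35.2 and 44.1 FPKM in AP and at 11.9, 12.8, 17.3, 11.5 and 5.60 FPKM in sham. The groups did not overlap, and the change was 1.52 ± 0.33 (SE; 95% interval 0.80 to 2.24; limma adjusted p = 0.681) and 0.22 in WT. KO AP 2 was the highest library for Chad as well as for Lypd2, Scgb3a2 and Cyp2f2. Other airway genes had other highest libraries, KO AP 4 for Ccno and Dnah5 and KO AP 3 for Muc5b. The ciliated list had its highest sum in KO sham 1. In bulk tissue, fewer cells of a type and less RNA per cell cannot be told apart. How much large airway each piece of lung held is not given in the sources used here, and its part in these values was not tested.

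Alveolar genes had lower medians in AP, which lay near 0 without the 3 libraries. The 15 type 2 genes had a median of -0.30 and the 15 type 1 genes also -0.30, and without the 3 libraries the medians were -0.01 and -0.06. S100g, a calcium-binding protein abundant in type 2 cells, was at 55.1 to 77.2 FPKM in AP and at 67.4, 83.9, 102, 73.9 and 290 FPKM in sham, where KO sham 5 was highest. Igfbp2 and Pdpn, both type 1 cell genes, were at 54.6 to 89.7 and 38.3 to 46.9 FPKM in AP against 60.7 to 325 and 33.5 to 93.0 FPKM in sham, again with KO sham 5 highest. The endothelial list had a median of -0.19, and 0.11 without the 3 libraries. Pecam1, the endothelial partner of CD177, was at 68.8 to 104 FPKM in AP and 52.2 to 176 FPKM in sham, with an interval of -1.02 to 0.23. Icam1, a ligand of the beta2 integrins, was at 58.1 to 92.1 FPKM in AP and 71.8 to 145 FPKM in sham. Lyve1, of lymphatic endothelium, was at 18.8 to 40.7 FPKM against 21.8 to 114 FPKM. In each of these 3 genes the range of AP was the narrower one and overlapped that of sham. Slc12a2, a chloride cotransporter of epithelia, was at 23.9 to 36.4 FPKM in AP and 17.1 to 26.8 FPKM in sham.

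Fibroblast, collagen and matrix remodelling lists had negative medians, with all libraries and without the 3. Of 20 fibroblast genes 19 had a change below 0, against 53% of all genes, and 6 had an unadjusted p under 0.05 in that direction, against 2.3% of all genes. The median was -0.33, and -0.32 without the 3 libraries. Of 22 collagen and basement membrane genes 6 had such a p and 20 a change below 0, with a median of -0.39 that was -0.13 without the 3 libraries. Col3a1, the fibrillar collagen of elastic tissue, was at 22.8, 15.1, 16.1, 19.5 and 9.01 FPKM in AP and at 24.5, 30.8, 26.8, 49.8 and 41.0 FPKM in sham. The groups did not overlap, KO sham 4 and KO sham 5 were the highest, and the change was -1.03 ± 0.26 (SE), or -0.76 without the 3 libraries. Col1a1 was at 20.2, 10.6, 12.2, 16.3 and 13.5 FPKM in AP and at 20.03, 30.8, 21.8, 48.3 and 20.8 FPKM in sham, where KO AP 1 and KO sham 1 overlapped. Col1a2, which encodes the other chain of type I collagen, was at 22.1 to 40.5 FPKM in AP and 33.4 to 59.6 FPKM in sham.

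Of 29 matrix remodelling genes 26 had a change below 0, against 53% of all genes. An unadjusted p under 0.05 was held by 6 below and 1 above 0, against 2.3% and 3.71% of all genes. The median was -0.38, and -0.08 without the 3 libraries. Timp1, the tissue inhibitor of metalloproteinases that inflamed tissue secretes, was at 18.6, 5.32, 9.31, 14.9 and 4.83 FPKM in AP and at 39.0, 19.5, 15.3, 52.6 and 47.4 FPKM in sham. Only KO AP 1 lay above the lowest sham library, and the change was -1.64 ± 0.42 (SE; 95% interval -2.57 to -0.71). Without the 3 libraries it was -1.20. In WT lung Timp1 was at 3.39 to 5.02 FPKM in AP and 2.27 to 6.93 FPKM in sham, below every KO sham library. Mmp19, a metalloproteinase, was at 4.09 to 5.11 FPKM in AP and at 6.21, 5.46, 5.88, 13.5 and 13.2 FPKM in sham, without overlap. Fn1 (fibronectin) and Mgp (matrix Gla protein, an inhibitor of calcification) were highest in KO sham 4 and KO sham 5, at 41.6 and 45.5 FPKM for Fn1 and at 2977 and 5650 FPKM for Mgp. Their changes were -1.16 and -1.12 with all libraries and -0.61 and -0.60 without the 3. Loxl1, a crosslinker of elastin, was at 6.06 to 12.6 FPKM in AP and 10.4 to 22.6 FPKM in sham. Adamts5, an aggrecanase, was the gene above 0 at an unadjusted p under 0.05. It was at 1.57 to 4.504 FPKM in AP and 1.02 to 2.42 FPKM in sham. Msln, a marker of the pleural mesothelium, was at 21.5 to 52.4 FPKM in 4 AP libraries and 96.9 FPKM in KO AP 3, against 49.4 to 88.9 FPKM in sham.

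**Figure D3:**
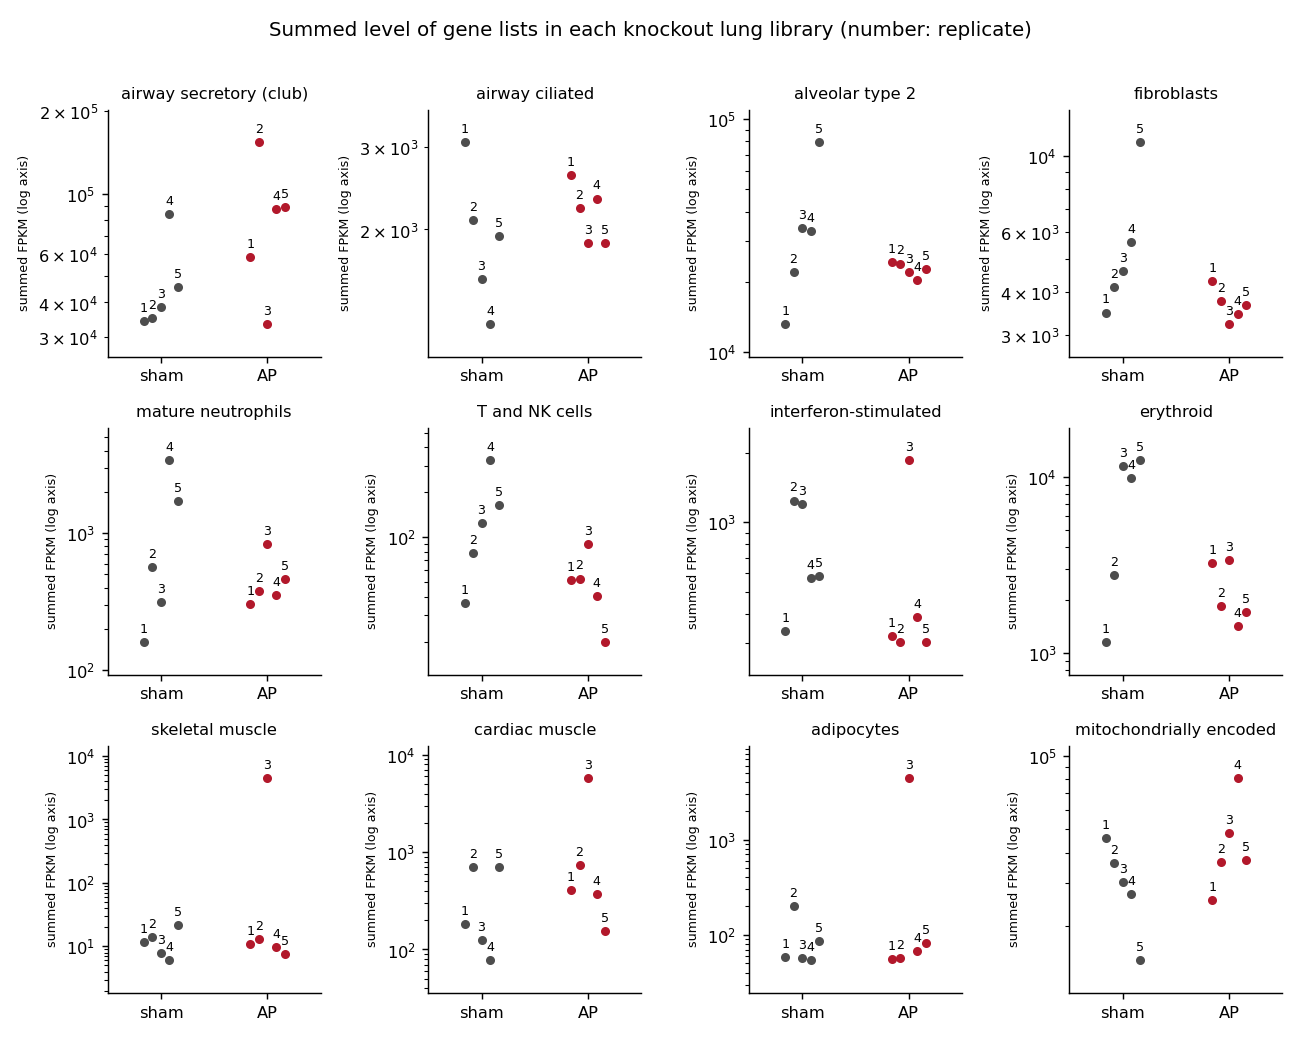
Summed FPKM of 12 gene lists in each KO lung library (y axis, log scale; grey, sham; red, AP; numbers, replicate). KO AP 3 stands above all others for adipocyte (4384 FPKM) and skeletal muscle genes (4429 FPKM), KO sham 4 for mature neutrophil genes (3396 FPKM), and KO sham 5 for type 2 cell genes (79307 FPKM).

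Leukocyte genes had lower medians in AP than in sham. Of 18 mature neutrophil genes tested 17 were below 0, against 53% of all genes, and none had an unadjusted p under 0.05. The mature neutrophil list had a median of -0.60. Its summed level was 306, 381, 835, 355 and 463 FPKM in AP and 160, 567.8, 313, 3396 and 1713 FPKM in sham. Without the 3 libraries the median was -0.01. S100a8, a calcium-binding protein of neutrophils, was at 68.4, 72.9, 226, 89.4 and 115 FPKM in AP and at 20.5, 139, 68.5, 1020 and 491 FPKM in sham. Its change was -0.62 ± 0.88 (SE) with all libraries and 0.53 without the 3, and Retnlg, a resistin-like gene of neutrophils, went from -0.30 to 0.82. These neutrophil genes were chosen outside the rule for named genes, after their values were seen. Lrg1 and Clec4d, the listed genes with the lowest p, were at 29.9 to 101 and 2.59 to 5.66 FPKM in AP, and at 230 and 29.4 FPKM in KO sham 4. Lcn2, the neutrophil granule and epithelial protein lipocalin-2, was at 39.2 to 69.2 FPKM in AP and at 66.4, 65.3, 57.8, 240 and 184 FPKM in sham. Itgb2, the beta2 integrin chain with which CD177 associates, was at 5.11 to 6.42 FPKM in 4 AP libraries and 14.5 FPKM in KO AP 3. In sham it was at 8.35 to 11.6 FPKM in 4 libraries and at 28.2 FPKM in KO sham 4.

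Macrophage lists had negative medians, and KO AP 3 held the highest monocyte and interstitial macrophage sum of the AP group, 3617 FPKM against 1449 to 1831 FPKM. Of 20 monocyte and interstitial macrophage genes 17 were below 0, against 53% of all genes. An unadjusted p under 0.05 was held by 5 below and 1 above 0, against 2.3% and 3.71% of all genes. The median was -0.36, or -0.25 without the 3 libraries. C1qa, a chain of complement C1q that tissue macrophages make, was at 43.6, 30.5, 32.2, 35.2 and 30.2 FPKM in AP and at 36.5, 56.7, 66.4, 54.6 and 88.3 FPKM in sham. KO AP 1 and KO sham 1 overlapped, and the change was -0.76 ± 0.21 (SE; 95% interval -1.22 to -0.29). C1qb and C1qc, the other chains, had changes of -0.76 and -0.59, with 16.2 to 25.7 and 14.7 to 19.5 FPKM in AP against 21.5 to 51.9 and 17.2 to 30.2 FPKM in sham. Trem2, a lipid-sensing receptor of macrophages, was at 2.36 to 4.04 FPKM in AP and 3.98 to 6.46 FPKM in sham. In WT lung Trem2 was at 2.09 to 3.55 FPKM in AP and 1.21 to 4.12 FPKM in sham. Cd68, a lysosomal protein, and Mrc1, a mannose receptor, had changes of -0.53 and -0.60. The 15 alveolar macrophage genes had a median of -0.35, or -0.19 without the 3 libraries, with 12 genes below and 3 above 0. Of the monocyte and interstitial macrophage genes 3 were above 0. Among them Nr4a1, an orphan nuclear receptor that is also an immediate early gene, had the unadjusted p under 0.05. It was at 30.5 to 81.9 FPKM in AP and 13.1 to 46.2 FPKM in sham.

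All 22 T and NK cell genes had a change below 0, against 53% of all genes. Of them 6 had an unadjusted p under 0.05, against 2.3% of all genes in that direction. The median was -0.65, or -0.22 without the 3 libraries. Ccl5, a chemokine of cytotoxic lymphocytes, was at 8.9998, 8.54, 24.6, 7.90 and 2.61 FPKM in AP and at 8.39, 19.0, 35.3, 105 and 48.3 FPKM in sham. Gzma, a granzyme, had the same highest libraries in each group, KO AP 3 at 21.5 FPKM and KO sham 4 at 48.9 FPKM, and the groups of both genes overlapped. Cd3e, of the T cell receptor complex, was at 0.628 to 1.35 FPKM in AP and at 0.936 to 6.98 FPKM in sham. The antigen presentation list had a median of -0.61, or -0.32 without the 3 libraries, with 10 of 11 genes below 0. Cd74, the invariant chain, was at 168 to 729 FPKM in AP and 310 to 1579 FPKM in sham, and Ctss, the protease that trims it, at 22.0 to 84.3 FPKM against 45.6 to 88.5 FPKM. Among 27 cytokines and chemokines 24 were below 0, 6 with an unadjusted p under 0.05. Ccl17, a T cell attractant of dendritic cells, was at 3.77 to 5.32 FPKM in AP and at 6.16, 11.3, 7.84, 7.59 and 32.3 FPKM in sham, without overlap. Ccl3, a chemokine of activated myeloid cells, was at 0.0558 to 1.42 FPKM against 0.827 to 1.56 FPKM.

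Interferon-stimulated genes split by library within both groups. Isg15, a ubiquitin-like interferon product, was at 9.66, 6.94, 86.5, 16.5 and 7.88 FPKM in AP and at 16.9, 121, 79.4, 18.5 and 30.7 FPKM in sham. KO AP 3, KO sham 2 and KO sham 3 held it above the other libraries, and the list sums of these 3 libraries, 1853, 1241 and 1203 FPKM, also exceeded the 302 to 585 FPKM of the other 7. The list median was -0.37, and -1.06 without the 3 libraries that correlated least with their group, with no gene of 32 at an unadjusted p under 0.05.

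Platelet and erythroid lists had negative medians, and no member passed the adjusted test. All 9 platelet and megakaryocyte genes tested were below 0, against 53% of all genes. Of them 5 had an unadjusted p under 0.05, against 2.3% of all genes in that direction. Their median was -0.56, or -0.49 without the 3 libraries. Pf4, the platelet chemokine, was at 18.6, 14.1, 18.6, 27.9 and 20.4 FPKM in AP and at 28.5, 31.6, 31.9, 48.9 and 39.8 FPKM in sham, without overlap. Its change was -0.83 ± 0.19 (SE; 95% interval -1.26 to -0.41; limma adjusted p = 0.776). Treml1, a receptor of platelet granules, was at 0.677 to 2.02 FPKM in AP and 1.51 to 7.09 FPKM in sham. Of 10 erythroid genes tested 9 were below 0, 2 with an unadjusted p under 0.05, with a median of -0.91, or -0.59 without the 3 libraries. Their summed level was 1423 to 3383 FPKM in AP and 1157, 2786, 11428, 9861 and 12346 FPKM in sham, so the groups overlapped. Hbb-bs, an adult beta-globin, was at 967, 462, 1052, 458 and 572 FPKM in AP and at 336, 964, 3845, 3704 and 4319 FPKM in sham. KO sham 3, KO sham 4 and KO sham 5 were above all AP libraries, while KO sham 1 was below them all. Whether lungs were perfused before sampling is not given in the sources used here, and the part of retained blood in the values of the leukocyte and blood lists was not tested.

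The summed levels of heart, skeletal muscle and fat genes were highest in KO AP 3. Actc1, the cardiac actin that also marks the muscle sleeve of pulmonary veins in mice, was at 59.3, 93.1, 470, 77.5 and 55.9 FPKM in AP and at 31.3 to 55.3 FPKM in sham. All AP libraries lay above all sham libraries, and the change was 1.16, or 0.53 without the 3 libraries. Tnnt3 and Atp2a1, the troponin T and calcium pump of fast skeletal muscle, were at 635 and 203 FPKM in KO AP 3. In the other 9 libraries they were at 1.22 to 6.86 FPKM and 0.00945 to 1.09 FPKM. The change of Tnnt3 was 1.31 with all libraries and -0.18 without the 3. Slc2a4, the insulin-responsive glucose transporter, was at 56.1 FPKM in KO AP 3 and at 1.19 to 4.77 FPKM elsewhere. Adrb3, an adrenergic receptor listed with adipocyte genes, was at 8.35, 13.8, 24.8, 10.9 and 14.3 FPKM in AP and at 4.47 to 10.8 FPKM in sham. Its change without the 3 libraries was 0.74. The adipocyte list did not keep that direction, with a median of 0.85 with all libraries and -0.31 without the 3. Pancreatic acinar genes summed to 1.68 to 5.04 FPKM, so that almost none of their RNA was present in any KO library.

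Unfolded protein response genes, which restore protein folding in the endoplasmic reticulum, had a negative median, and no member passed the adjusted test. All 27 genes tested were below 0, against 53% of all genes. Of them 4 had an unadjusted p under 0.05, against 2.3% of all genes in that direction. The median was -0.44, or -0.64 without the 3 libraries. The summed level overlapped between the groups, at 1358 to 2438 FPKM in AP and 1614 to 4249 FPKM in sham, where KO sham 1 was highest. Manf, a secreted stress-induced factor, was at 106, 52.7, 65.1, 62.7 and 45.9 FPKM in AP and at 222, 127, 71.5, 60.4 and 128 FPKM in sham. KO AP 1 and KO sham 1 were the highest libraries of their groups for Manf, and also for Sdf2l1, a chaperone cofactor, at 50.9 and 108 FPKM. Edem1, which sends misfolded proteins to degradation, was at 8.92 to 11.4 FPKM in AP and 12.1 to 15.3 FPKM in sham, without overlap, and its change was -0.36 ± 0.12 (SE).

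Glucocorticoid-responsive genes had a median of -0.38, and -0.20 without the 3 libraries. Of the 19 genes 15 were below 0, against 53% of all genes. Of these 5 had an unadjusted p under 0.05, against 2.3% of all genes in that direction. Fkbp5, a cochaperone of the glucocorticoid receptor that the receptor induces, was at 9.76, 9.47, 11.1, 8.15 and 31.6 FPKM in AP and at 16.9, 18.8, 50.7, 37.6 and 24.2 FPKM in sham. Apart from KO AP 5 every AP library lay below every sham library, and the change was -1.09 ± 0.38 (SE). Tsc22d3, another target of the receptor, was at 117 to 235 FPKM in AP and 152 to 458 FPKM in sham, with a change of -0.81. In WT the changes of these genes were -0.89 and -0.77.

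Of 19 circadian clock genes 16 had a change above 0, against 46.9% of all genes. Of these 3 had an unadjusted p under 0.05, against 3.71% of all genes in that direction. The median was 0.24, or 0.30 without the 3 libraries. Nr1d1, the repressor REV-ERB alpha, was at 34.3, 27.9, 35.7, 34.1 and 35.8 FPKM in AP and at 20.3, 13.5, 15.99, 29.7 and 32.4 FPKM in sham. Only KO AP 2 lay within the sham range, and the change was 0.64 ± 0.23 (SE). Per3, a period gene, was at 20.1 to 35.5 FPKM in AP against 14.4 to 24.3 FPKM in sham. Dbp, an output transcription factor of the clock, was at 27.9 to 90.4 FPKM in AP and 12.4 to 91.9 FPKM in sham, so the sham group alone spanned the range of AP. Egr1, an immediate early transcription factor, was at 15.03 to 27.8 FPKM in AP and 6.68 to 19.99 FPKM in sham, with a change of 1.04 ± 0.26 (SE). Fos, of the AP-1 complex, was at 23.2 to 56.0 FPKM against 17.3 to 37.6 FPKM. The immediate early list had 11 of 20 genes above 0, against 46.9% of all genes, and 9 below 0. Its median was 0.12, or 0.27 without the 3 libraries. Of the 20 genes 2 had an unadjusted p under 0.05, both above 0, against 3.71% of all genes in that direction. The hour of sampling is not given in the sources used here, and its part in the clock values was not tested.

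Xenobiotic and fatty acid oxidation genes had positive medians, while those of lipid and surfactant synthesis (-0.06) and of hypoxia and glycolysis (0.02) lay near 0. Of 19 xenobiotic metabolism genes 17 were above 0, against 46.9% of all genes, and 4 had an unadjusted p under 0.05, against 3.71%. The median of the 19 genes was 0.40, or 0.22 without the 3 libraries. Of these genes Aldh1a1 and Cyp2f2 also stand in the club cell list. Sult1d1, a sulfotransferase, was at 3.62 to 17.2 FPKM in AP and 1.62 to 8.08 FPKM in sham. Among 19 genes of fasting and fatty acid oxidation 16 were above 0, with a median of 0.31, or 0.08 without the 3 libraries. Acot1, an acyl-CoA thioesterase, was at 25.4, 33.4, 15.4, 18.8 and 48.5 FPKM in AP and at 10.9 to 22.3 FPKM in sham. KO AP 5 was its highest library, and the groups overlapped.

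Mitochondrially encoded genes were above 0 in 13 of 13, against 46.9% of all genes, with a median of 0.58. None of the 13 had an unadjusted p under 0.05. Of them mt-Nd4, a subunit of complex I, was at 1838, 3052, 2820, 6361 and 3003 FPKM in AP and at 3018, 2577, 2138, 1944 and 349 FPKM in sham. KO AP 4 was the highest library and KO sham 5 the lowest, and the list median was 0.15 without the 3 libraries. Respiratory chain subunits encoded in the nucleus had a median of 0.02. All 24 cytosolic ribosomal protein genes were below 0, against 53% of all genes, with a median of -0.36. None had an unadjusted p under 0.05, and KO sham 5 held their highest sum, 48948 FPKM. Of 24 cell cycle genes 7 were above 0, and the median was -0.14, or 0.01 without the 3 libraries. Of these Birc5, a regulator of chromosome segregation, was at 3.80 to 4.54 FPKM in AP and 4.18 to 9.91 FPKM in sham.

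**Figure D4:**
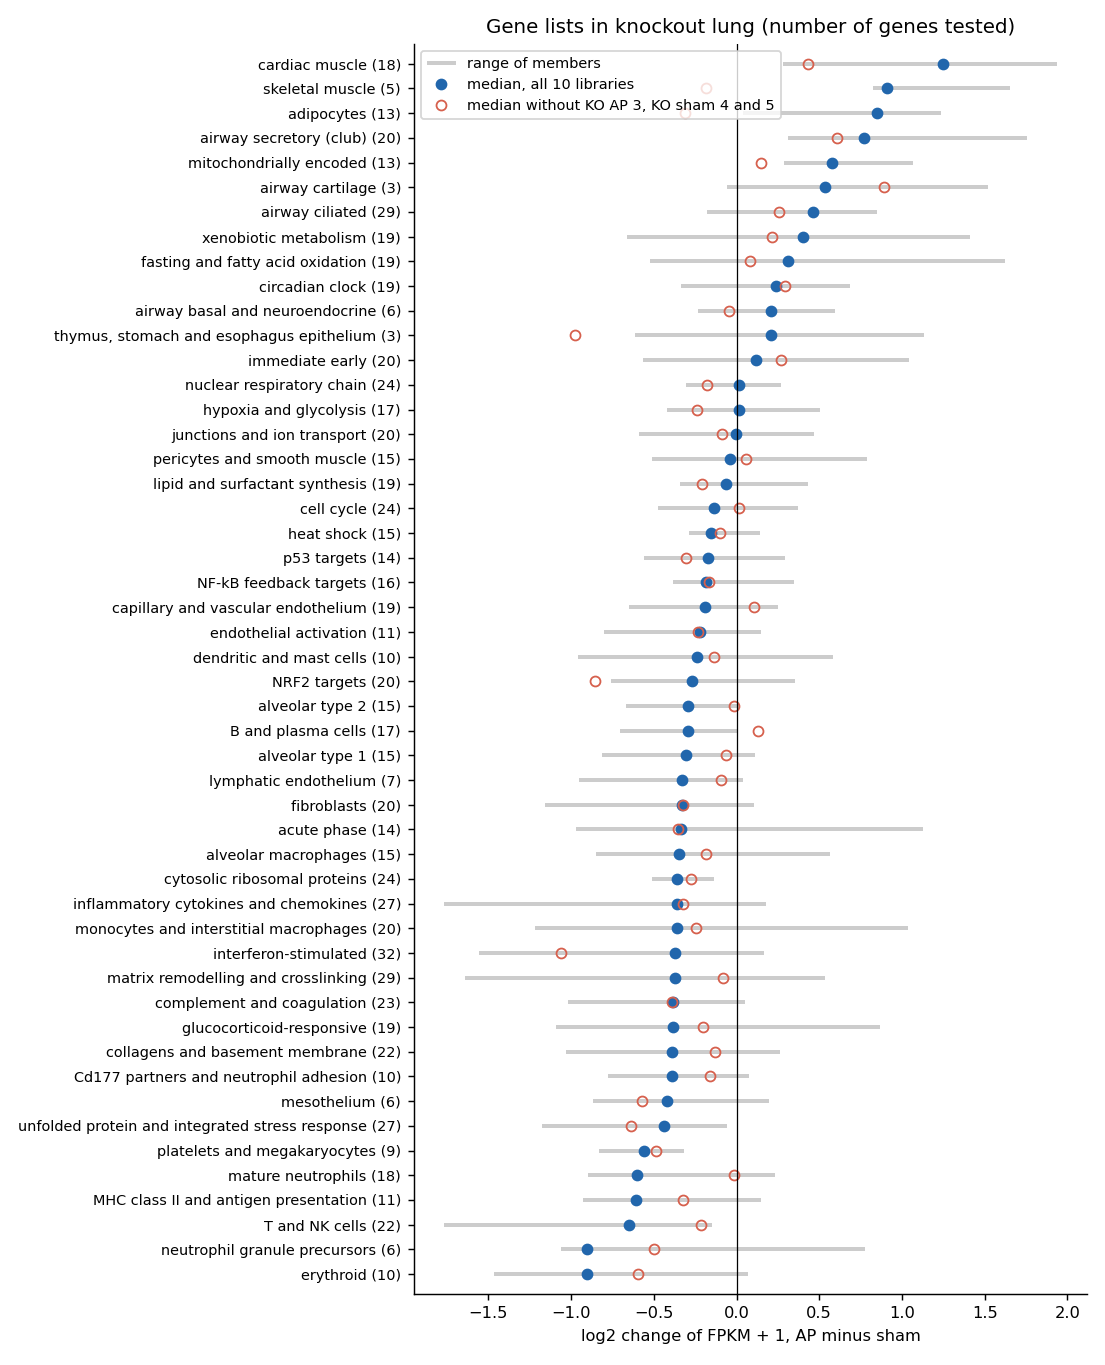
Gene lists with at least 3 genes tested, ordered by the median log2 change of FPKM + 1 (AP minus sham in KO lung; grey lines, range over members with all 10 libraries; filled, median with all libraries; open, median without KO AP 3, KO sham 4 and KO sham 5). The club cell list keeps a median of 0.61 without these libraries, while the skeletal muscle list goes from 0.91 to -0.18 and the mature neutrophil list from -0.60 to -0.01.

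The AP difference in KO lung was set beside that in WT lung, which has its own 5 AP and 5 sham libraries, so no library enters both. The KO libraries were read deeper than the WT ones, as given above. No gene passed an adjusted p of 0.05 for the difference between the responses (limma over 20 libraries, 0% called, lowest adjusted p 0.103), and 1384 genes, 8.66%, had an unadjusted p under 0.05. With limma's array quality weights, which count variable libraries less, 307 genes passed. Across the 15978 genes the changes in KO and WT had a Pearson correlation of 0.03 and a Spearman correlation of 0.01, as a description over genes, which are not independent. In WT, S100a8 was at 227 to 293 FPKM in AP and 42.0 to 112 FPKM in sham, without overlap, a change of 1.69, beside the -0.62 in KO, which turned to 0.53 without the 3 KO libraries and to 0.048 without KO sham 4 alone. Of the list medians, that of mature neutrophils was 0.82 in WT and -0.60 in KO, or -0.01 in KO without the 3 libraries. That of T and NK cells was 0.42 in WT and -0.65 in KO, or -0.22 without the 3. For the antigen presentation genes it was 0.56 and -0.61, or -0.32 without the 3. With all 20 libraries 9 of 11 antigen presentation genes and 15 of 22 T and NK cell genes had an unadjusted p under 0.05 for the difference. Among KO libraries the antigen presentation sum was highest in KO sham 5, at 2890 FPKM, and the T and NK cell sum in KO sham 4, at 326 FPKM. Genes of a list are not independent, and these counts are not given without the 3 libraries.

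C1qa had a WT range of 24.5 to 47.6 FPKM in AP and 17.2 to 33.7 FPKM in sham. Its change of 0.59 in WT differed from that in KO by -1.34 ± 0.31 (SE), with an unadjusted p of 0.000385 and a limma adjusted p of 0.308. For Agmo the difference was 0.80 ± 0.16 (SE; limma adjusted p = 0.184) and for Akap7 0.60 ± 0.14 (SE; limma adjusted p = 0.308). Arntl, which encodes the clock activator BMAL1, was at 3.56 to 8.39 FPKM in WT AP and 10.4 to 16.5 FPKM in WT sham, against 1.85 to 4.57 and 1.28 to 3.33 FPKM in KO. Its changes were -1.33 in WT and 0.38 in KO, a difference of 1.71 ± 0.32 (SE; limma adjusted p = 0.125). Dbp was at 26.6 to 77.9 FPKM in WT AP and 1.32 to 17.6 FPKM in WT sham, a change of 3.07 against 0.69 in KO. Cdkn1a, the cell cycle inhibitor p21, was at 42.2 to 104 FPKM in WT AP and 172 to 277 FPKM in WT sham, a change of -1.75. In KO it was at 43.0 to 75.2 FPKM in AP and 44.1 to 109 FPKM in sham, a change of -0.46 with overlapping groups. The WT values of Arntl, Dbp and Cdkn1a did not overlap between AP and sham, and the differences between genotypes did not pass the adjusted test.

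**Figure D5:**
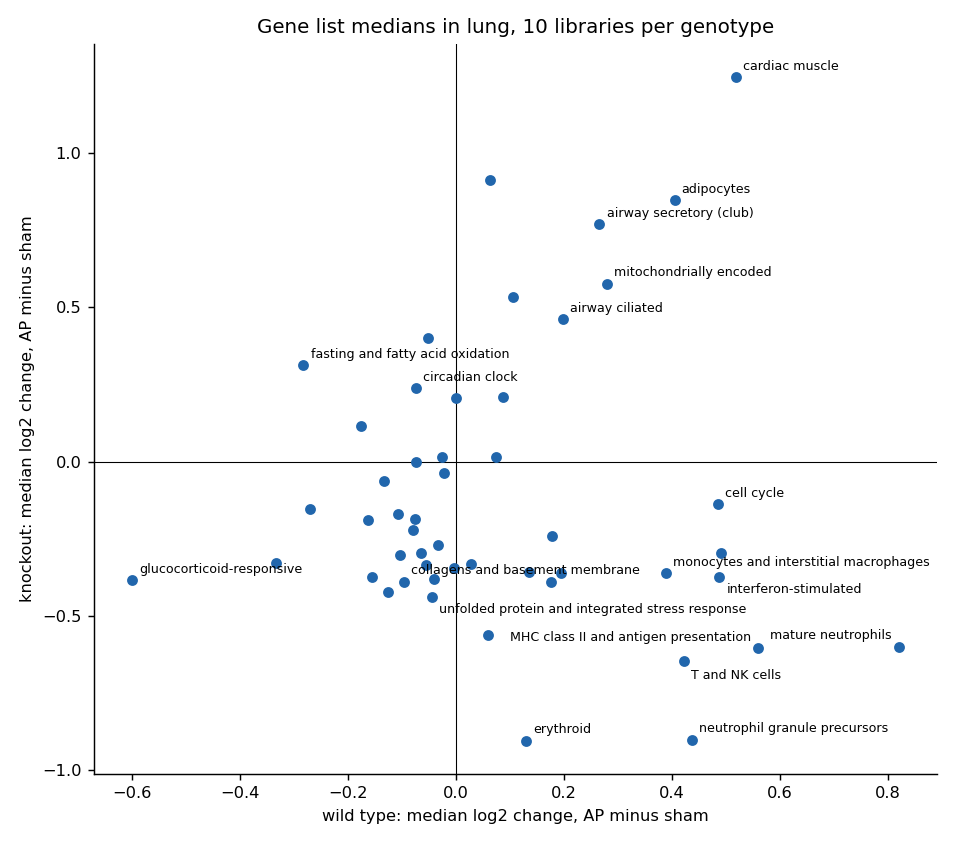
Median log2 change (AP minus sham) of each gene list with at least 3 genes tested, WT lung on the x axis and KO lung on the y axis, 10 libraries per genotype. Mature neutrophils lie at 0.82 in WT and -0.60 in KO, the club cell list at 0.27 and 0.77, and the glucocorticoid-responsive list at -0.60 and -0.38.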

How the data were processed

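The lung table was deposited as FPKM, which the authors had scaled to transcript length and depth, with an Ensembl gene per line. The submitters' processing notes name HISAT2 2.1.0, the mm39 build and StringTie 1.3.3b, without their roles. The annotation, strand setting and filters are not stated there. Symbols were matched for 52081 of 55357 genes. The ratios of low values gave each library's read total, and 98.6% to 99.0% of low single-transcript genes came out whole within 0.01 read in each lung library. Genes with several transcripts did not, so no count test was run.

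Libraries were grouped by the labels. Values were taken as log2(FPKM + 1), which understates changes of low genes, for genes at 1 FPKM or more in at least 4 of 20 lung libraries. AP was compared with sham by limma 3.58.1 in R 4.3.3 with a mean-variance trend, on the 10 KO lung libraries alone, and the difference between the KO and WT responses on all 20. Benjamini-Hochberg adjustment ran over all genes and the threshold was 0.05. Other steps used Python 3.11.15 with pandas 2.3.3. Both fits were tested on simulated data. Same-numbered libraries were not treated as pairs, since their deviations from the group means did not correlate above 0.1 in every pair.

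The comparison and the 51 gene lists were chosen with earlier results of these data known, so no list is independent support. Of the listed symbols 3 were not matched. Named were Cd177, every gene past the threshold, the 10 genes of either direction with the lowest p whose mean reached 2 FPKM in AP or sham, and up to 4 genes with the lowest p of each list, or 8 for 10 of the lists. Predicted genes, pseudogenes and receptor segments were left out of this ranking, and some genes that this ranking yields are not reported here, 1 of the 20 with the lowest p among them. The alternatives were another pseudocount, other filters and scalings, array weights, a replicate block, fewer libraries and the 20-library fit. Robust moderation and leaving out genes mostly at 0 were added after seeing the data.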

Additional observations from a re-analysis of the deposited data

Results flagged for a closer look

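Each gene and list sum described was checked in the 5 libraries of each KO group for a library far from the other 4, by Dixon's test at the 95% level. Of 284 such groups 22 held one, and chance flags about 1 in 20 groups.

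KO AP 3 was the library far from the rest in 11 of them. It was high for Itgb2 (14.5 FPKM), Actc1 (470 FPKM), Atp2a1 (203 FPKM), Tnnt3 (635 FPKM) and Slc2a4 (56.1 FPKM), and low for Cdhr3, a cadherin of ciliated cells (25.9 FPKM, against 34.6 to 38.1 FPKM in the other AP libraries). Within the AP group it also held the highest sums of the monocyte and interstitial macrophage (3617 FPKM), skeletal muscle (4429 FPKM), adipocyte (4384 FPKM), interferon-stimulated (1853 FPKM) and lipid and surfactant synthesis lists (1584 FPKM). In the other AP libraries Fkbp5 (31.6 FPKM) and Cytl1 (19.4 FPKM) were high in KO AP 5, Nr1d1 was low in KO AP 2 (27.9 FPKM) and the sum of junction and ion transport genes was high in KO AP 1 (2462 FPKM).

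In the sham group Gm9747 was present in KO sham 2 alone (3.70 FPKM) and Itgb2 was high in KO sham 4 (28.2 FPKM). KO sham 5 was high for S100g (290 FPKM), Marc2 (119.95 FPKM) and the sum of acute phase genes (2776 FPKM), and low for mt-Nd4 (349 FPKM). KO sham 4 held the lowest sum of genes of thymus, stomach and esophagus epithelium, 0.853 FPKM against 29.5 to 56.5 FPKM in the other sham libraries.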

How the results depend on the processing

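The count of genes past the threshold in KO lung was 0 (limma, 960 at an unadjusted p under 0.05). It was 1 at a pseudocount of 0.1 and 2 in the 20-library fit, and leaving out 1 library gave 0 to 3, the 3 without KO sham 2. The other filters and scalings, array weights, robust moderation and leaving out the 3 libraries or genes mostly at 0 gave 0. The cause was not tested. For the difference between the KO and WT responses the count was 0, and 1 at a pseudocount of 0.1, 1 without the 3 libraries and 307 with array weights, 103 of them higher and 204 lower. Leaving out 1 library gave 0 to 2, the 2 without KO sham 2 and 1 each without KO AP 3 and WT sham 1.

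Of the genes described 5 changed sign, and leaving out 1 library gave -0.17 (without KO AP 3) to 1.78 for Tnnt3, -1.34 to 0.048 (without KO sham 4) for S100a8, -0.92 to 0.31 (without KO sham 4; 0.047 without KO sham 5) for Retnlg and -0.079 to 0.20 (without KO sham 5; 0.027 without KO AP 5) for Marc2. Without the 3 libraries these genes were at -0.18, 0.53, 0.82 and 0.18. Col9a3, at -0.06, was at -0.18 to 0.032 with 1 library left out (the highest without KO sham 4; 0.016 without KO AP 1 and 9.5e-06 without KO AP 3), 0.050 with array weights and 0.16 without the 3. Marc2, at -0.01 with all libraries, was at 0.024 on the upper quartile scale and 0.18 with array weights. Over 21 settings the club cell median stayed between 0.59 and 0.90, the ciliated between 0.26 and 0.63, the fibroblast between -0.56 and -0.21, the platelet between -0.74 and -0.30 and the unfolded protein response between -0.64 and -0.23. Of the 51 list medians 13 changed sign in at least 1 setting, in 11 settings for junctions and ion transport, 7 for hypoxia and glycolysis, 6 each for the nuclear respiratory chain and for pericytes and smooth muscle, and 4 for thymus, stomach and esophagus epithelium. It was 2 each for basal and neuroendocrine, skeletal muscle and adipocyte genes, and 1 each for endothelium, B and plasma cells, NRF2 targets, cell cycle and lipid synthesis.

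With the replicate number as a replicate block 0 genes passed in either comparison, with 926 in KO at an unadjusted p under 0.05. The pairing was not established, since same-numbered AP and sham libraries had deviations correlated between -0.31 and 0.39 across genes.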
